A study of Homo sapiens with 18 samples.

Results

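The genes described here are the replication-dependent histone genes, which supply most of the histone protein that packages newly made DNA. They were taken from a deposited expression table by name alone. A member is a protein-coding gene whose current symbol is H1-1 to H1-5, or starts with H2AC, H2BC, H3C or H4C followed by a digit. Of the 15258 genes in the table, 49 were members: 4 linker histone H1 genes, 13 H2A genes, 16 H2B genes, 7 H3 genes and 9 H4 genes. GENCODE 44 lists 69 such genes, and the other 20 were not analysed here. All 49 passed the filter of a mean of at least 1 TPM (transcript abundance scaled to the same total in each library, a level per length), which left 14512 genes for testing.

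The cells were MEL624, an established human melanoma line. KO1 and KO2 were clonal lines knocked out for PCIF1, which adds a methyl group to an adenosine that directly follows the mRNA cap. The control was 1 MEL624 line, wild type with a random sgRNA. With 3 biological replicates per line, lettered A to C, there were 9 libraries of input mRNA, and 9 further libraries of m6A-immunoprecipitated mRNA were not analysed here. Because each knockout is 1 clone and the control is 1 line, every adjusted p below measures the spread between libraries of a line, not between independently edited lines.

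PCIF1 itself was at 22, 24.7 and 25.3 TPM in the KO1 libraries, at 58.0, 58.1 and 64.7 TPM in the KO2 libraries, and at 55.2, 55.6 and 62.0 TPM in the control libraries. KO1 lay below control in every library, whereas the ranges of KO2 and control overlapped, so the mRNA level of PCIF1 does not tell KO2 from control. Libraries held 7848089 to 11393206 reads counted on genes, 84602764 in all. Of 11 melanocyte and melanoma markers, 3 were in the table (MITF, VIM and AXL), and their summed level was 2940 to 3100 TPM in KO1, 2560 to 2960 TPM in KO2 and 2760 to 2830 TPM in control. Most of that sum was VIM, which averaged 2310 TPM in KO1, 2030 TPM in KO2 and 2040 TPM in control. MITF averaged 26.3 TPM in KO1, 50 TPM in KO2 and 37.1 TPM in control. The pigment cell genes PMEL, MLANA, TYR, DCT, TYRP1 and SOX10 had no row, nor did S100B and S100A1. Of 4 endothelial and 4 epithelial markers none had a row. Of 5 immune markers CD68 had one, and of 5 fibroblast markers LUM and COL1A1 did. CD68 averaged 133 TPM in KO1, 138 TPM in KO2 and 186 TPM in control, while LUM and COL1A1 stayed at or below 2.39 TPM on average in each line.

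Histone mRNA of this kind is made mainly in S phase, when DNA is copied, and is degraded when copying stops. Unlike other mRNAs it usually ends in a short RNA hairpin, the histone stem-loop, instead of a poly(A) tail. The stem-loop-binding protein SLBP holds the hairpin, and the U7 small nuclear ribonucleoprotein guides the cut that forms the end. The RNA here was purified with mRNA-capturing beads in repeated rounds, per the labels' protocols, so the values are those of histone transcripts that came through that step. How much of each transcript the beads kept was not measured, and histone transcripts with a poly(A) tail cannot be told apart from the others in these values.

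All 49 members held a copy of the stem-loop within 300 bases after the stop codon, 23 to 57 bases from it, in GENCODE 44 transcripts on hg38. Members were searched after the stop codon of each annotated transcript, and other coding genes after that of the main transcript alone. Among 12587 other coding genes, 2 held it (0.0159%), the histone genes H3-7 and H2AX. The forms are shown because they are the feature that the members share and the naming rule did not use. Each is written 5′ to 3′ with the 6-base arms in capitals and the 4-base loop in lower case, and positions count from 1 at its 5′ end.
Commonest form: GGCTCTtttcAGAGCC
H4 form: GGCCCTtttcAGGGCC
Loop variant: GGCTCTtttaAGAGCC
H2AC20: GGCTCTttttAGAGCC
H2BC10: GGCTCTtctaAGAGCC
H2AC11: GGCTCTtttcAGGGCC
H4C9: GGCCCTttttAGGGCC
H2AC15: GGTTCTtttcAGAGCC
The commonest form was carried by 29 members, including all 4 H1 genes. The H4 form, with T4C and A13G relative to the commonest one, was carried by 8 of the 9 H4 genes and by no other class. The loop variant, with C10A, was carried by 7 members (H2AC21, H2BC4, H2BC5, H2BC7, H2BC11, H2BC12 and H3C8). The remaining 5 forms had 1 member each.

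Summed histone mRNA lay lower in both clones. Over the 49 members it stood at 2427, 2487 and 2346 TPM in the KO1 libraries, at 2634, 2486 and 2546 TPM in the KO2 libraries, and at 2955, 2890 and 3015 TPM in the control libraries. The KO1 mean was 81.9% and the KO2 mean 86.5% of the control mean, and neither clone overlapped the control. As a share of all reads on genes, the members took 0.0444% to 0.0469% in KO1, 0.0465% to 0.05% in KO2 and 0.0564% to 0.0588% in control. In bulk libraries, fewer cells in S phase and less histone RNA per cell cannot be told apart.

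In KO1, 24 of the 49 members were lower than control and 2 were higher, against a background of 14.1% of all tested genes lower and 20.2% higher. The median log2 fold change was -0.30 over the members and 0.04 over all tested genes. In KO2, 19 members were lower and 1 was higher, against a background of 14.8% lower and 15.6% higher, with medians of -0.32 and 0.01. A call here is a two-sided limma-trend adjusted p under 0.05, adjusted over all 14512 genes. The number of lower members in KO2 fell to 11 without KO2 replicate C and to 11 without control replicate B, while in KO1 it stayed between 17 and 25 when each library was left out. Of the called members, 16 of 24 lower in KO1 and 8 of 19 lower in KO2 kept their call without any 1 of the 9 libraries. KO1 and KO2 are set against the same 3 control libraries. In the mean of both clones, 26 members were lower than control and 1 was higher, with a background of 15% lower and 19.3% higher.

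In the single libraries, many members did not overlap between clones and control. For 18 members all 6 clone libraries lay below all 3 control libraries, which held for 11.3% of all tested genes. They were H1-3, H1-4, H1-5, H2AC7, H2AC8, H2AC11, H2AC12, H2AC14, H2AC15, H2AC17, H2BC8, H2BC9, H2BC10, H2BC13, H2BC15, H3C12, H4C2 and H4C9. For 1 member, H2BC14, all clone libraries lay above control, which held for 13.1% of all tested genes.

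**Figure D1:**
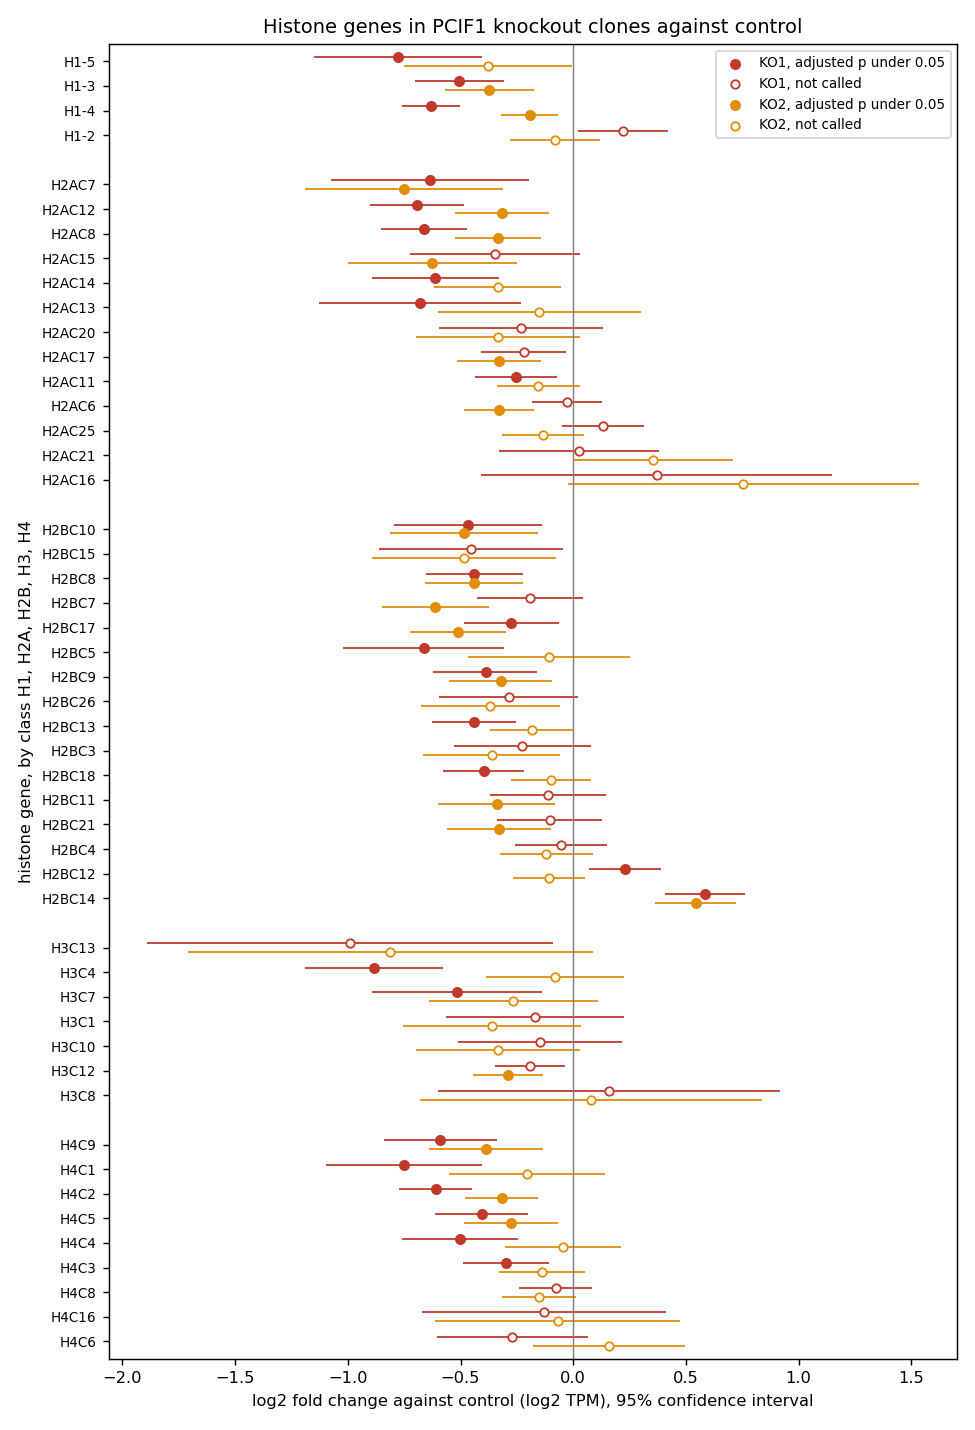
Log2 fold change (log2 TPM) of each of the 49 histone genes in KO1 (red) and KO2 (orange) against control, grouped by class, with 95% confidence intervals; filled points had an adjusted p under 0.05. Points sit mostly left of 0 in every class, and H2BC14 is to the right of 0 in both clones.

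The sums by class were below control in both clones. H2A genes summed to 517 ± 23.4 TPM in KO1, 549 ± 40.2 TPM in KO2 and 675 ± 13.6 TPM in control (SD, n = 3 each). H3 genes summed to 144 ± 14.8 TPM in KO1, 161 ± 6.27 TPM in KO2 and 193 ± 7.66 TPM in control. H4 genes summed to 615 ± 32.7 TPM in KO1, 723 ± 59.5 TPM in KO2 and 811 ± 40.6 TPM in control, and H1 genes to 477 ± 29.0 TPM in KO1, 488 ± 18.6 TPM in KO2 and 560 ± 19.9 TPM in control. H2B genes summed to 666 ± 26.2 TPM in KO1, 634 ± 10.7 TPM in KO2 and 714 ± 22 TPM in control. In all 5 classes every clone library lay below every control library. The KO1 sums were 74.7% of control for H3, 75.8% for H4, 76.6% for H2A, 85.2% for H1 and 93.3% for H2B, and the KO2 sums lay between 81.4% (H2A) and 89.1% (H4). Sums are led by a few genes and were not tested. For 18 members the length used in counting was more than 2 times that of the main transcript, up to 11.9 times, so their TPM is diluted and levels between genes should be read with that in mind.

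**Figure D2:**
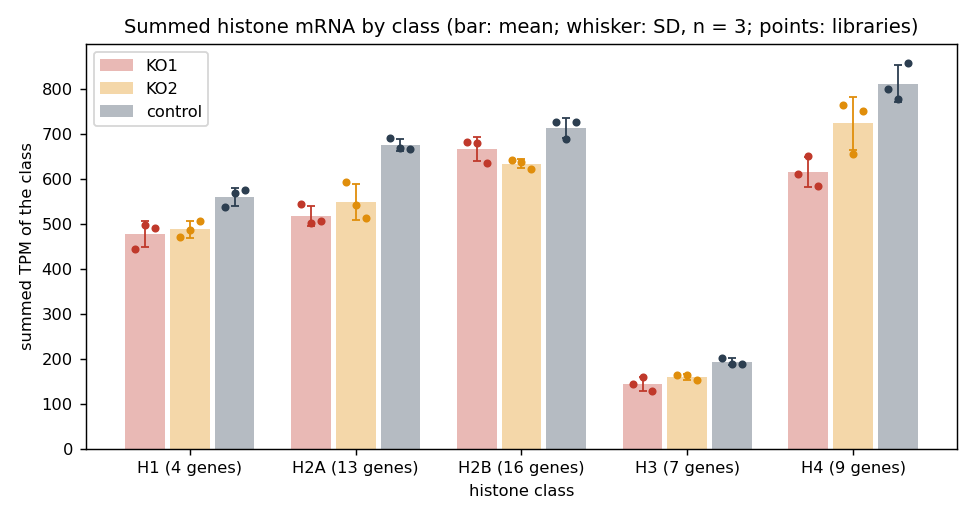
Summed TPM of each histone class in KO1, KO2 and control; bars are means, whiskers SD (n = 3) and points single libraries. In every class the clone libraries lie below the control libraries.

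The linker histones bind the DNA between nucleosomes and help fold chromatin. Of 4 H1 genes, 3 were lower in KO1 and 2 in KO2, against 14.1% and 14.8% of all tested genes. H1-4 (hg38 chr6:26156329-26157115, plus strand) had 124, 122 and 116 TPM in KO1, 170, 157 and 164 TPM in KO2, and 180, 204 and 178 TPM in control. The 3 lines fell into 3 separate ranges, KO1 lowest. Its log2 fold change was -0.63 ± 0.06 (SE, adjusted p = 3.42e-05) in KO1 and -0.19 ± 0.06 (adjusted p = 0.0279) in KO2. The KO2 call ended without KO2 replicate B, KO2 replicate C or control replicate B (adjusted p of 0.0582 to 0.0904) and under 2 other settings, no variance trend and a GC and length correction (up to 0.0783).

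H1-3 fell in both clones, with 90.7, 106 and 98.3 TPM in KO1, 97.6, 104 and 123 TPM in KO2, and 139, 130 and 149 TPM in control. Its log2 fold changes were -0.51 in KO1 (adjusted p = 0.00187) and -0.37 in KO2 (adjusted p = 0.00993). H1-5 had 16, 18.4 and 11.5 TPM in KO1, 23.4, 18.1 and 18.2 TPM in KO2, and 29.1, 24 and 24.4 TPM in control. It fell in KO1 (-0.78 ± 0.17, adjusted p = 0.00569) and missed the threshold in KO2 (-0.38 ± 0.17, adjusted p = 0.116, or 0.0437 without KO1 replicate C and 0.0492 when fitting just KO2 and control). H1-2, the most abundant H1 gene, had 213, 251 and 264 TPM in KO1, 179, 207 and 203 TPM in KO2, and 189, 210 and 224 TPM in control. The control range overlapped that of each clone, while the clones did not overlap each other. Neither difference from control passed the test (0.22, adjusted p = 0.0808 in KO1; -0.08, adjusted p = 0.542 in KO2). The KO1 difference was called, as higher, without KO1 replicate A (adjusted p = 0.0184), with the replicate block (0.0055) and after subtracting a GC and length trend (0.0269).

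H2A pairs with H2B to form the outer dimers of the nucleosome. Of 13 H2A genes, 6 were lower in KO1, 6 were lower in KO2 and none was higher in either. The background was 14.1% of all tested genes lower and 20.2% higher in KO1, and 14.8% lower and 15.6% higher in KO2. The KO1 count was 3 without KO1 replicate C and 3 without control replicate A. H2AC8 (chr6:26216921-26217437, plus strand), the most abundant by mean TPM, had 98.3, 76.7 and 97.4 TPM in KO1, 117, 106 and 117 TPM in KO2, and 143, 142 and 143 TPM in control. The control libraries were tightly grouped above both clones. Its log2 fold change was -0.66 ± 0.09 (adjusted p = 0.000317) in KO1 and -0.33 ± 0.09 (adjusted p = 0.0146) in KO2.

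H2AC12 had 59.1, 59.9 and 68.2 TPM in KO1, 91.3, 83.5 and 69.3 TPM in KO2, and 96.5, 100 and 105 TPM in control. It fell by 0.69 on the log2 scale in KO1 (adjusted p = 0.000428) and by 0.32 in KO2 (adjusted p = 0.0289), and the KO2 call ended without KO2 replicate C, control replicate B or control replicate C (up to 0.0918) and under 2 other settings (up to 0.0608). H2AC17 had 111, 100 and 99.6 TPM in KO1, 105, 101 and 83.4 TPM in KO2, and 129, 118 and 115 TPM in control. It missed the threshold in KO1 (-0.22, adjusted p = 0.0689) and fell in KO2 (-0.33, adjusted p = 0.0143), which was 0.0561 without control replicate A. The KO1 difference was called without KO2 replicate C (adjusted p = 0.0162) and under 3 other settings (up to 0.0332). H2AC17 overlaps H3C12 in the annotation and shares 67.8% of its 50-base stretches with other genes, so reads between them may be split uncertainly.

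H2AC14 had 28.1, 23.4 and 19.2 TPM in KO1, 25.8, 30.7 and 28.4 TPM in KO2, and 37.6, 32.5 and 36.9 TPM in control. The KO1 difference passed the test (-0.61, adjusted p = 0.00462), and that in KO2 was -0.33 (adjusted p = 0.072, or 0.0291 without KO1 replicate C, 0.0295 without KO1 replicate A and 0.0219 when fitting just KO2 and control). H2AC15 had 26.7, 29.2 and 28.8 TPM in KO1, 28.5, 25.6 and 17.2 TPM in KO2, and 32.4, 42.6 and 33.4 TPM in control. Its KO2 value was -0.63 (adjusted p = 0.0188, or 0.0724 without control replicate B), and its KO1 value -0.35 (adjusted p = 0.14, or 0.029 without KO2 replicate C and 0.0336 when fitting just KO1 and control). Whether the clones differ was tested for both genes and passed for neither (adjusted p of 0.131 for H2AC14, or 0.025 without KO1 replicate A, and 0.252 for H2AC15).

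H2AC7 had 46.0, 34.4 and 35.7 TPM in KO1, 50.6, 32.6 and 27.1 TPM in KO2, and 63.7, 60.7 and 54.9 TPM in control. It was lower in KO1 (-0.64, adjusted p = 0.0309) and in KO2 (-0.75, adjusted p = 0.0165). The KO1 call ended without KO1 replicate B, KO1 replicate C or any 1 control library (up to 0.0951) and with no variance trend (0.0614), and the KO2 call without KO2 replicate C or control replicate A (up to 0.0561). H2AC7 shares 83.9% of its 50-base stretches with other genes and overlaps an unnamed gene on the same strand, so its counts are uncertain. H2AC6 had 29.3, 29.2 and 30.9 TPM in KO1 (-0.03, adjusted p = 0.809), 25.2, 24 and 23.2 TPM in KO2, and 32.7, 30.8 and 27.7 TPM in control. It fell in KO2 (-0.33, adjusted p = 0.00558), where its 3 libraries were below all others. The other 6 H2A genes had log2 fold changes between -0.68 (H2AC13) and 0.37 (H2AC16) in KO1, and between -0.33 (H2AC20) and 0.76 (H2AC16) in KO2. Of these 6, H2AC11 (-0.26) and H2AC13 fell in KO1, calls that ended without KO1 replicate C or control replicate A among others (up to 0.121) and under 2 other settings each (up to 0.106). H2AC16 rested on 108 reads in all and was called in neither clone.

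**Figure D3:**
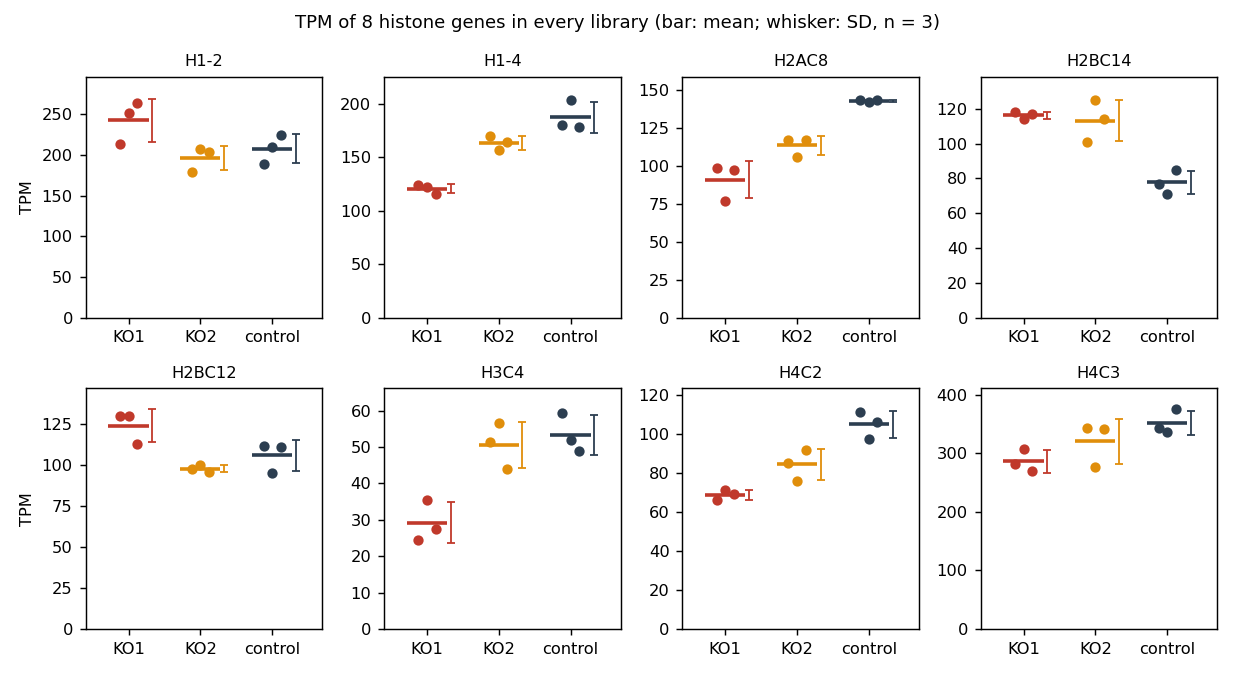
TPM of 8 histone genes in every library of KO1, KO2 and control; points are libraries, bars means and whiskers SD (n = 3). H1-4, H2AC8 and H4C2 are below control in both clones, H3C4 is low in KO1, H2BC12 is highest in KO1, and H2BC14 is above control in both clones.

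H2B genes held both of the genes that rose. Of 16 H2B genes, 7 were lower and 2 higher in KO1, and 7 lower and 1 higher in KO2. The background was 14.1% of all tested genes lower and 20.2% higher in KO1, and 14.8% lower and 15.6% higher in KO2. The KO1 count of lower genes was 4 without control replicate B, and the KO2 count was 4 without any 1 KO2 library or any 1 control library. H2BC14 (chr6:27815022-27815489, plus strand) had 118, 114 and 117 TPM in KO1, 101, 125 and 114 TPM in KO2, and 77.0, 71.3 and 84.8 TPM in control. All 6 clone libraries were above every control library. It rose by 0.59 ± 0.08 in KO1 (adjusted p = 0.000433) and by 0.54 ± 0.08 in KO2 (adjusted p = 0.000635) on the log2 scale, and both calls held without any 1 library. H2BC14 shares 0% of its 50-base stretches with other genes.

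H2BC12 (chr6:27146361-27146855, minus strand) had 130, 130 and 113 TPM in KO1, 97.9, 100 and 96.2 TPM in KO2, and 112, 95.4 and 111 TPM in control. It rose in KO1 (0.23 ± 0.07, adjusted p = 0.0317), and the KO2 difference was -0.11 (adjusted p = 0.291). The KO1 call ended without KO1 replicate A, KO1 replicate B or control replicate B (up to 0.109) and under 5 other settings, among them centring each library on its median and limma-voom on recovered reads (0.0511 to 0.233). Of its 50-base stretches, 57.2% are shared with other genes.

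Among the H2B genes that fell, H2BC10 had 44.3, 37.3 and 28.7 TPM in KO1, 37.7, 39.6 and 30.7 TPM in KO2, and 54.4, 48.4 and 47.6 TPM in control. Its log2 fold changes were alike, -0.47 in KO1 (adjusted p = 0.0329) and -0.48 in KO2 (adjusted p = 0.0311). Both calls ended without any 1 control library, and also without KO1 replicate B or C for KO1 and KO2 replicate A or C for KO2 (up to 0.104), and with no variance trend (0.063 in KO1 and 0.0616 in KO2). H2BC8 fell by 0.44 in each clone and kept both calls without any 1 library (adjusted p = 0.00668 in KO1 and 0.00683 in KO2). H2BC5 had 37.3, 36.9 and 22.8 TPM in KO1, 50.1, 45.4 and 43.7 TPM in KO2, and 52.4, 49.4 and 48.1 TPM in control. It fell in KO1 (-0.66, adjusted p = 0.0101) and was near control in KO2 (-0.11, adjusted p = 0.654).

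H2BC7 was lowest in KO2, with 18.8, 23.4 and 18.8 TPM in KO1, 16, 13.4 and 16.2 TPM in KO2, and 23.8, 23.8 and 21.9 TPM in control. It fell by 0.61 in KO2 (adjusted p = 0.00173), and its KO1 value was -0.19 (adjusted p = 0.189, or 0.0496 without KO1 replicate B). The other 10 H2B genes had log2 fold changes of -0.45 (H2BC15) to -0.05 (H2BC4) in KO1 and of -0.51 (H2BC17) to -0.10 (H2BC18) in KO2. Of these 10, H2BC9, H2BC13, H2BC17 and H2BC18 fell in KO1 and H2BC9, H2BC11, H2BC17 and H2BC21 in KO2. The KO1 calls of H2BC9 and H2BC17 and the KO2 calls of H2BC9, H2BC11 and H2BC21 each ended without control replicate C or control replicate B, among other libraries (up to 0.163). Those of H2BC17 in KO1 and of H2BC9, H2BC11 and H2BC21 in KO2 also ended under 1 to 5 other settings (up to 0.087).

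H3 and H4 form the core of the nucleosome. The 7 H3 genes encode 2 distinct proteins, 6 of them the same one, and all 9 H4 genes encode 1 protein. Of the 7 H3 genes, 2 were lower in KO1 (1 without KO1 replicate C) and 1 in KO2. Over all tested genes, 14.1% were lower in KO1 and 14.8% in KO2. A count of 1 in 7 is near that share, so the H3 counts alone do not set the class apart. H3C12 had 61.5, 58.4 and 57.5 TPM in KO1, 61.9, 49.9 and 54.6 TPM in KO2, and 67.6, 67.8 and 66.9 TPM in control. All clone libraries were below the narrow control range, and the difference passed in KO2 (-0.29, adjusted p = 0.0112) and missed in KO1 (-0.19, adjusted p = 0.0585, or 0.0176 without KO2 replicate A and 0.022 without KO2 replicate B). It was also called in KO1 under 2 other settings (up to 0.0323). H3C4 (chr6:26196784-26197286, minus strand) had 24.5, 35.4 and 27.5 TPM in KO1, 51.3, 56.5 and 43.9 TPM in KO2, and 59.4, 51.9 and 48.8 TPM in control. It fell in KO1 (-0.88 ± 0.14, adjusted p = 0.000917) and was -0.08 ± 0.14 in KO2 (adjusted p = 0.701). It shares 96.5% of its 50-base stretches with other genes, the most of any member, and overlaps the same unnamed gene as H2AC7. The other called gene, H3C7, fell by 0.52 in KO1 (adjusted p = 0.0388), a call that ended without KO1 replicate A, KO1 replicate C or control replicate C and under 4 other settings (up to 0.13). H3C13 had -0.99 in KO1 (adjusted p = 0.0841, or 0.0338 with limma-voom on recovered reads) and -0.81 in KO2 (adjusted p = 0.159) on 101 reads in all.

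Of the 9 H4 genes, 6 were lower in KO1 and 3 in KO2, and none was higher. The background was 14.1% of all tested genes lower and 20.2% higher in KO1, and 14.8% lower and 15.6% higher in KO2. The KO2 count was 1 without KO2 replicate C, control replicate B or control replicate C. H4C3, the most abundant member of all, had 281, 308 and 270 TPM in KO1, 344, 276 and 342 TPM in KO2, and 344, 336 and 375 TPM in control. KO1 lay below control in every library and KO2 overlapped it. The KO1 value was -0.30 (adjusted p = 0.0229), which ended without KO1 replicate A, KO1 replicate C or control replicate C and with no variance trend (up to 0.0832), and the KO2 value was -0.14 (adjusted p = 0.252). H4C2 (chr6:26026896-26027283, minus strand) had 65.9, 71.0 and 69.1 TPM in KO1, 85.2, 75.8 and 91.7 TPM in KO2, and 111, 97.2 and 106 TPM in control. The 3 lines did not overlap, and it fell by 0.61 in KO1 (adjusted p = 0.000197) and by 0.32 in KO2 (adjusted p = 0.00831), with both calls held without any 1 library.

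H4C5 had 71.5, 81.4 and 73.7 TPM in KO1, 96.7, 73.0 and 79.5 TPM in KO2, and 95.5, 101 and 104 TPM in control. It fell in KO1 (-0.41, adjusted p = 0.00784) and, near the threshold, in KO2 (-0.28, adjusted p = 0.0471, a call that 7 of the 9 left-out libraries ended, up to 0.141: KO1 replicates A and C, KO2 replicates B and C, and each control library). That call also ended under 5 other settings (up to 0.0886). H4C9 had 19.2, 24 and 19.8 TPM in KO1, 25.8, 25.7 and 21.0 TPM in KO2, and 28.1, 33.2 and 33.3 TPM in control. It fell by 0.59 in KO1 (adjusted p = 0.0032) and by 0.39 in KO2 (adjusted p = 0.0265, up to 0.0888 without KO2 replicate C, control replicate B or control replicate C). H4C1 had 56.7, 53.3 and 49.9 TPM in KO1, 70.1, 75.9 and 88.2 TPM in KO2, and 89.1, 69.7 and 116 TPM in control, where the spread was wide. It fell in KO1 (-0.75, adjusted p = 0.00458), and its KO2 value was -0.21 (adjusted p = 0.355). H4C4 had 25.9, 20.2 and 27.6 TPM in KO1, 32.0, 36.7 and 31.9 TPM in KO2, and 37.8, 33.7 and 32.3 TPM in control, and it fell in KO1 (-0.50, adjusted p = 0.0078, or 0.0519 with limma-voom on recovered reads). The remaining 3 H4 genes (H4C6, H4C8 and H4C16) were called in neither clone, at -0.27 to -0.08 in KO1 and -0.15 to 0.16 in KO2.

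Set directly against each other, KO2 was lower than KO1 in 5 members and higher in 10, against a background of 16.9% of all tested genes lower and 11.8% higher. With each library centred on its median the members counted 3 lower and 11 higher, and all tested genes 12.2% lower and 15.2% higher. H3C4 differed most, with KO2 above KO1 by 0.80 ± 0.14 (adjusted p = 0.00206). H2BC5 (0.56, adjusted p = 0.0268), H4C1 (0.55, adjusted p = 0.0252), H4C4 (0.46, adjusted p = 0.0146) and H1-4 (0.44, adjusted p = 0.000452) were also higher in KO2. Of the 9 H4 genes, 3 were higher in KO2 than in KO1 (H4C1, H4C2 and H4C4) and 8 had a difference above 0. Those lower in KO2 were H2BC7 (-0.42, adjusted p = 0.0149), H2BC12 (-0.34, adjusted p = 0.00636), H2AC6 (-0.30, adjusted p = 0.0097), H1-2 (-0.30, adjusted p = 0.0298) and H2AC25 (-0.27, adjusted p = 0.034). Of the 15 calls, 8 held without any 1 library. Of those 8, H4C4 (0.118), H2BC7 (0.0741) and H2AC6 (0.0632) lost the call with limma-voom on recovered reads. The calls of H4C1 (up to 0.084), H2BC5 (up to 0.0836) and H1-2 (up to 0.108) did not hold: they ended without KO1 replicate B, KO1 replicate C or KO2 replicate C for H4C1, without KO2 replicate A or B for H2BC5, and without KO1 replicate B, KO1 replicate C or KO2 replicate A for H1-2. The call of H2AC25 ended without KO1 replicate B or C or KO2 replicate A or B (up to 0.105), that of H2AC8 without KO2 replicate A or C (up to 0.0564), that of H2BC18 without KO1 replicate A or B or KO2 replicate B or C (up to 0.0626), and that of H2BC13 without 7 of the 9 libraries (up to 0.121). Of these 7 genes, all but H2AC8 and H2BC18 also lost the call under 1 to 4 other settings (up to 0.135).

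Annotated transcripts of some members run past the stem-loop or are spliced, which is how such genes can give mRNA with a poly(A) tail. For 13 members an annotated transcript was spliced or ran more than 100 bases past the stem-loop, and for 36 every annotated transcript ended near it. Among the 36, 22 were lower and 2 higher in KO1 (median log2 fold change -0.42), and 15 were lower and 1 higher in KO2 (median -0.32). Among the 13, 2 were lower in KO1 (median -0.13) and 4 in KO2 (median -0.29), and none was higher. The KO2 count of the 36 was 9 without KO2 replicate C and 8 without control replicate B, and that of the 13 was 2 without KO2 replicate B, KO2 replicate C or control replicate C. As background, 14.1% of all tested genes were lower and 20.2% higher in KO1, and 14.8% lower and 15.6% higher in KO2. The split was compared by counts alone. Of the 36, H2BC7, H2BC8, H2BC9, H2AC11, H3C8, H4C5 and H4C9 were counted over 2.99 to 5.74 times the length of the main transcript. The transcripts used in counting are not given, so these genes cannot be taken as counted up to the stem-loop alone. The split was not repeated without them. Members with the loop variant of the stem-loop had a median of -0.05 in KO1 and -0.11 in KO2, those with the commonest form -0.40 and -0.33, and those with the H4 form -0.35 and -0.15. These sets differ in class and in extended transcripts (H2BC4, H2BC5 and H2BC11 carry both the loop variant and an extended or spliced transcript), and the part of each was not tested.

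PCIF1 acts on mRNAs that begin with adenosine, so the members were also divided by the first transcribed base. At the RefSeq start (45 members matched a RefSeq promoter), 25 began with A. Of these 25, 15 were lower and none higher in KO1, and 14 were lower and none higher in KO2. Of the 20 that began with another base, 6 were lower and 2 higher in KO1, and 3 were lower and 1 higher in KO2. The KO2 count of the 25 was 8 without KO2 replicate C, 7 without control replicate A, 8 without control replicate B and 8 without control replicate C. Over all tested genes with a RefSeq start, 14.1% of those beginning with A and 15% of the others were lower in KO1, and 15.9% and 14.8% in KO2. At the start of the main GENCODE transcript, 30 members began with A. Of these 30, 18 were lower and 1 higher in KO1, and 16 were lower and none higher in KO2. The other 19 counted 6 lower and 1 higher in KO1, and 3 lower and 1 higher in KO2. An annotated start is not a measured one, and the modification itself was not measured in these libraries.

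Promoters of the members carry motifs known from histone genes: the CCAAT box, the TATA box (searched as TATAAA) and the octamer ATTTGCAT, which the factor POU2F1 binds. Both strands of the 300 bases from 250 before to 50 after the RefSeq start were searched. CCAAT was found in 40 of 45 members (88.9%, against 37.2% of promoters of genes in the table), and 5 of the 7 H4 promoters were the ones without it. TATAAA was found in 27 (60%, against 5.47%). ATTTGCAT was found in 22 (48.9%, against 1.37%): 12 of 16 H2B promoters, 9 of 12 H2A promoters and 1 of 6 H3 promoters. In the 11 H2A and H2B pairs described below, the facing starts lie 170 to 251 bases apart, so their windows share DNA. A motif there can count for both genes of a pair, and the shares are not those of separate promoters. Members with ATTTGCAT had a median log2 fold change of -0.23 in KO1 and -0.33 in KO2, those without it -0.44 and -0.27.

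Many H2A and H2B genes stand head to head and share the DNA between their starts. The 2 stretches printed are the 240 bases before the starts of the H2B genes that rose, since each is also the upstream DNA of an H2A gene that fell in KO1. They come from RefSeq promoters on hg38, chr6:27814782-27815021 on the plus strand for H2BC14 and chr6:27146859-27147098 on the minus strand for H2BC12. Capitals mark the 3 motifs on either strand.
H2BC14: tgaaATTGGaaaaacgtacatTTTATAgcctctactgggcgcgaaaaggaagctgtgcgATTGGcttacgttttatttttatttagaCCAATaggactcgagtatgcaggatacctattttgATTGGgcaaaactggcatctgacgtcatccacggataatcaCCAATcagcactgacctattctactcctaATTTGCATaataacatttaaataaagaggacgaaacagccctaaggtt
H2BC12: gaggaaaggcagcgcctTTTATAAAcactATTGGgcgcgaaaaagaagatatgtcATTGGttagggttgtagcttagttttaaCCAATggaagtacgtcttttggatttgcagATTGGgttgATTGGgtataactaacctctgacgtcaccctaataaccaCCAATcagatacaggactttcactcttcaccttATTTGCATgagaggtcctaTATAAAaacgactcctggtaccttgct
The CCAAT box occurs at 5 places before H2BC14 and at 6 before H2BC12, and the octamer at 1 place in each. The TATA box occurs at 1 place before H2BC14 and at 3 before H2BC12, of which 2 overlap on opposite strands.

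There were 11 such divergent H2A and H2B pairs among the members, and the 2 genes of a pair did not always move together. The pairs were examined after the values of the genes were seen. H2AC14 and H2BC14, with starts 245 bases apart, moved in opposite directions in KO1. The log2 ratio of their TPM was -2.07, -2.29 and -2.60 in KO1, -1.97, -2.03 and -2.00 in KO2, and -1.03, -1.13 and -1.20 in control. Both clones lay below control without overlap (exact two-sided permutation p = 0.1 for each, the smallest that 3 against 3 allows). H2AC14 shares 66.3% of its 50-base stretches with other genes. For H2AC12 and H2BC12, 251 bases apart, the log2 ratio was -1.14, -1.11 and -0.73 in KO1, -0.10, -0.26 and -0.47 in KO2, and -0.21, 0.07 and -0.08 in control. KO1 lay apart from control (exact permutation p = 0.1) and KO2 overlapped it (exact permutation p = 0.2). H2AC7 and H2BC7 also lay apart in KO1 (mean log2 ratio 0.92 in KO1, 1.23 in KO2 and 1.37 in control, exact permutation p = 0.1 for KO1 and 0.7 for KO2), though narrowly. Their highest KO1 ratio was 1.29 and their lowest control ratio 1.33. In the other 8 pairs the ratio overlapped control in both clones. With no difference, 3 libraries lie apart from 3 others with a probability of 0.1, so among 11 pairs some can do so by chance. Because the values had been seen first, these p-values are descriptive. Over the 11 pairs, the H2A gene had the lower log2 fold change in 7 in KO1 (median difference -0.14) and in 6 in KO2 (median difference 0.00).

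**Figure D4:**
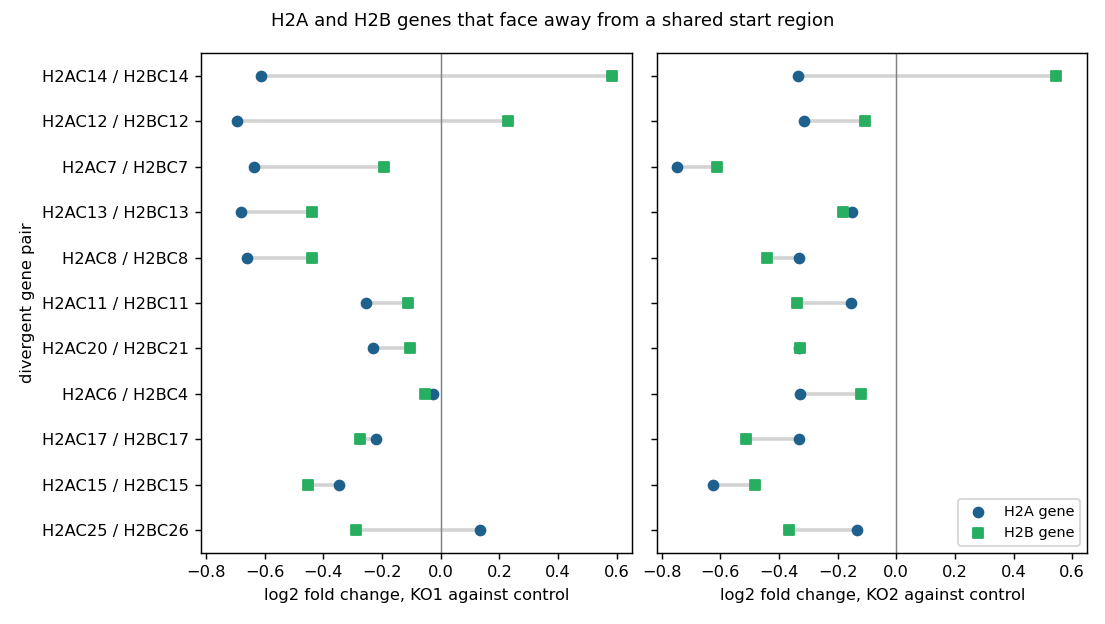
Log2 fold change against control of the H2A gene (circle) and the H2B gene (square) of 11 divergent pairs, in KO1 (left) and KO2 (right). In the top pair, H2AC14 is left of 0 and H2BC14 right of 0 in both clones. H2AC12 and H2BC12 lie on opposite sides of 0 in KO1, as do H2AC25 and H2BC26.

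Most members, 41 of 49, lie in 1 cluster on chromosome 6, 5 lie in a cluster on chromosome 1, 2 lie elsewhere on chromosome 1 and H4C16 lies on chromosome 12. In the chromosome 6 cluster 23 were lower and 2 higher in KO1 (median log2 fold change -0.39), and 18 were lower and 1 higher in KO2 (median -0.32). The 30 other tested genes from 1 Mb before to 1 Mb after that cluster counted 4 lower and none higher in KO1 (median -0.06). In KO2 they counted 5 lower and 1 higher (median -0.26). Over all tested genes, 14.1% were lower and 20.2% higher in KO1, and 14.8% lower and 15.6% higher in KO2. In KO1 the neighbours sat near the median of all genes and the histone genes below it. In KO2 the medians of neighbours and histone genes were close to each other, and the number of lower neighbours was 3 without control replicate B. Of the 5 members in the chromosome 1 cluster, 1 was lower in KO1 (H2BC18) and 1 in KO2 (H2BC21, a call that ended without any 1 KO2 or control library, up to 0.112).

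**Figure D5:**
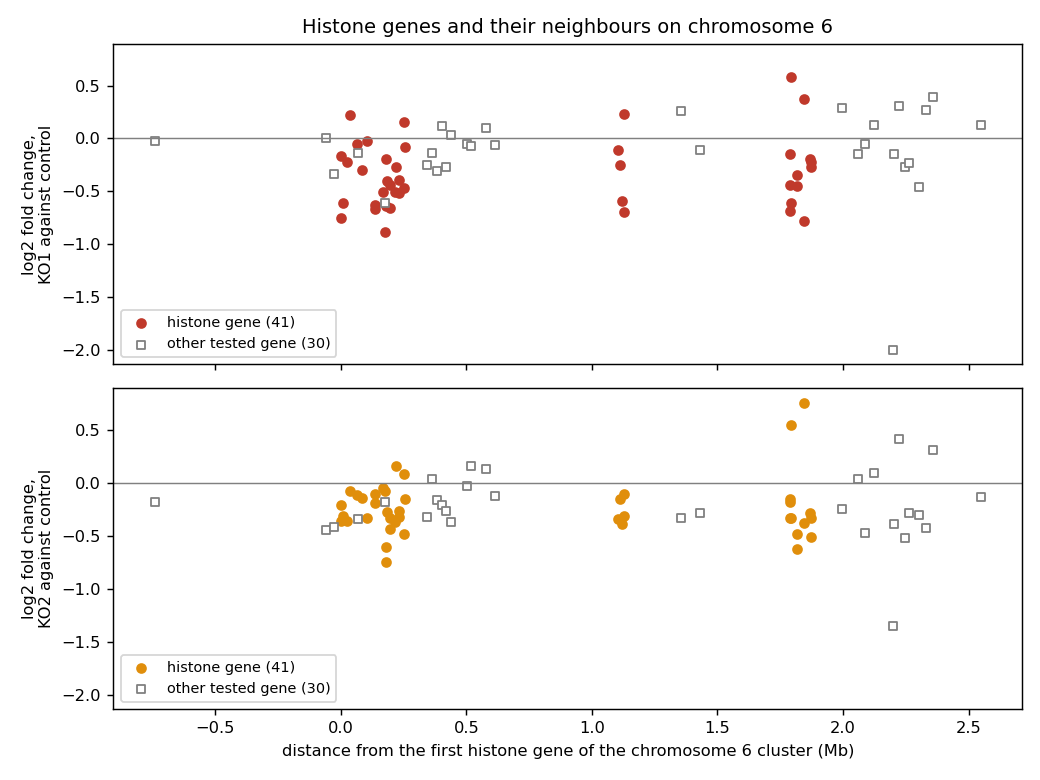
Log2 fold change against control of 41 histone genes (filled circles) and 30 other tested genes (open squares), by distance in Mb from the first histone gene of the chromosome 6 cluster, for KO1 (top) and KO2 (bottom). Histone genes lie mostly below 0 along the whole cluster, with H2BC14 and H2AC16 above 0 towards its far end.

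Values of other RNAs, listed as lacking a poly(A) tail, stand beside the histone counts because they passed through the same bead purification. Tails were not measured, so forms of a listed RNA that have one, as may hold for NEAT1, cannot be told apart. Of 12 tested, 8 were lower and 1 higher in KO1 (median log2 fold change -0.50), and 5 were lower and none higher in KO2 (median -0.30). The shares over all tested genes were 14.1% lower and 20.2% higher in KO1, and 14.8% lower and 15.6% higher in KO2. The summed level of the 12 RNAs was 8956 to 9562 TPM in KO1, 9892 to 10202 TPM in KO2 and 12069 to 13006 TPM in control. TPM counts short RNAs more heavily than reads do. As a share of all reads on genes the same RNAs took 0.352% to 0.378% in KO1, 0.306% to 0.343% in KO2 and 0.332% to 0.348% in control, so by reads KO1 lay above control and KO2 overlapped it. RMRP, the RNA of an enzyme that cuts ribosomal RNA precursors, had 2690, 2990 and 2680 TPM in KO1, 3550, 3550 and 3410 TPM in KO2, and 4570, 4910 and 4720 TPM in control. It was lower in every clone library and fell by 0.77 in KO1 (adjusted p = 2.38e-06) and 0.43 in KO2 (adjusted p = 9.4e-05). RPPH1, the RNA of RNase P, fell by 0.56 and 0.49, and RN7SL2, an RNA of the signal recognition particle, by 0.38 and 0.34. MALAT1, a nuclear RNA, rose in KO1 (0.40, adjusted p = 0.000401). Its reads are in the read share above, and were not separated there from those of the RNAs that fell. The part of the change in these RNAs in the histone result was not tested.

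Of 37 tested genes that act on histone transcription and histone mRNA ends, 4 were lower and 11 higher in KO1 (median log2 fold change 0.03), and 5 were lower and 5 higher in KO2 (median 0.01). The KO2 count of lower genes was 2 without control replicate A, 3 without control replicate B and 3 without KO2 replicate B. Over all tested genes, 14.1% were lower and 20.2% higher in KO1, and 14.8% lower and 15.6% higher in KO2. NPAT, the coactivator of histone genes, was at 15.3 ± 0.15 TPM in KO1, 15.6 ± 1.30 TPM in KO2 and 14.7 ± 1.65 TPM in control (SD, n = 3 each), with neither difference called (adjusted p of 0.642 and 0.533). SLBP was at 178 ± 10.9 TPM in KO1, 193 ± 2.93 TPM in KO2 and 164 ± 7.35 TPM in control, higher in KO2 (0.24, adjusted p = 0.00477) and not called in KO1 (0.12, adjusted p = 0.0828). SNRPB, a core protein of spliceosomal and U7 particles, fell by 0.69 in KO1 (adjusted p = 4.78e-06) and 0.62 in KO2 (adjusted p = 9.23e-06). CDK2, the kinase that activates NPAT with cyclin E, fell by 0.31 in KO1 (adjusted p = 0.00163) and in KO2 (adjusted p = 0.0016). CCNE1, a cyclin E, fell in KO1 (-0.66, adjusted p = 0.000366), and CCNE2, the other cyclin E, rose in KO1 (0.68) and KO2 (0.38). CSTF2, a factor of mRNA 3′ end cleavage, rose in KO1 (0.37, adjusted p = 0.00185) and in KO2 (0.53, adjusted p = 0.000195).

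Of 27 S phase genes, which mark the setting in which histone mRNA is made, 3 were lower and 14 higher in KO1 (median log2 fold change 0.17). In KO2, 4 were lower and 8 higher (median 0.12). The shares over all tested genes were 14.1% lower and 20.2% higher in KO1, and 14.8% lower and 15.6% higher in KO2. MCM4, part of the replicative helicase, rose by 0.49 in KO1 and 0.47 in KO2, and MKI67, a marker of cycling cells, by 0.56 and 0.31. PCNA, the sliding clamp of DNA polymerases, fell by 0.45 in KO1 and 0.51 in KO2, and TYMS, which makes thymidylate, by 0.38 and 0.52. Histone chaperones, which carry new histones to DNA, counted 1 lower and 7 higher of 26 in KO1 and 3 lower and 5 higher in KO2. The KO1 count of higher chaperones was as low as 3 when 1 library was left out, and the KO2 count of lower ones was 1 without KO2 replicate A or control replicate B.

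Replication-independent histone variants have mRNAs with poly(A) tails. Of 10 tested, 1 was lower and 4 higher in KO1 (median log2 fold change 0.04), and 3 were lower and 2 higher in KO2 (median -0.03). The shares over all tested genes were 14.1% lower and 20.2% higher in KO1, and 14.8% lower and 15.6% higher in KO2. Among these variants the largest called change was that of MACROH2A2. It rose by 4.89 in KO1 (adjusted p = 1.78e-06) and by 7.97 in KO2 (adjusted p = 7.25e-08), and both calls held without any 1 library. H2AZ1 rose by 0.23 in KO1 (adjusted p = 0.00339) and by 0.25 in KO2 (adjusted p = 0.00237). H1-10 was lower in KO1 (-0.44, adjusted p = 0.00548), and its KO2 value was -0.25 (adjusted p = 0.0712). H2AX, which has both a stem-loop and a poly(A) form, had 557, 442 and 439 TPM in KO1, 395, 510 and 360 TPM in KO2, and 373, 336 and 364 TPM in control. It rose in KO1 (0.42, adjusted p = 0.0277), a call that ended without KO1 replicate A or any 1 control library (up to 0.0915).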

How the data were processed

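The authors deposited log2 TPM values (transcript abundance scaled to an equal total over the listed genes in each library) of 15258 genes in 9 input libraries. The submitters' processing notes name hg38 and list R 3.3.3 with edgeR 3.12.1, featureCounts, HISAT2 2.0.4 and SAMtools 1.7. Annotation and strand setting: not given in the sources used here. Therefore reads of 10 members with an annotated overlap cannot be assigned with certainty. Per the labels' protocols, libraries came from bead-purified mRNA with a directional kit.

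Symbols came from GENCODE 44, which held 15138 identifiers, and 120 had none. Differences were tested by limma-trend (R 4.3.3, limma 3.58.1) on the deposited log2 values, with 1 mean per line (6 residual degrees of freedom). Genes averaging 1 TPM or more were kept, 14512 in all, and p-values were adjusted over them by Benjamini-Hochberg. KO1, KO2 and their mean were each set against control, and KO2 against KO1. It was tested on simulated data. Whole reads were recovered from the values and used for depth and as an alternative test. No 2 replicates of a line were alike within counting error, with a chi-square of 1.24 to 3.96 per degree of freedom. Alternatives were pseudocounts, filters, centring, quantile normalization, no variance trend, 2-line fits, a replicate block, limma-voom, a GC and length trend, and leaving out each library.

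The members and all gene lists were chosen with earlier results of these data known. Genes given with the value in every library were the 2 most abundant of each class, up to 8 lowest and up to 8 highest called without overlap in the mean of both clones (8 lower genes and, on the higher side, H2BC14 alone), and the 4 highest and 4 lowest between the clones. H4C2, H1-3 and the other genes named were added after their values were seen.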

Additional observations from a re-analysis of the deposited data

Results flagged for a closer look

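For 15 of the 49 histone genes the change in KO2 differed from that in KO1, by the limma-trend test of KO2 against KO1. Of the 49, 5 (10.2%) were lower and 10 (20.4%) higher in KO2 than in KO1. Of all tested genes, 16.9% were lower and 11.8% higher. With both directions counted, members were called about as often as all tested genes, so the count of 15 does not set them apart. The log2 difference, KO2 minus KO1, was 0.80 for H3C4, 0.56 for H2BC5, 0.55 for H4C1, 0.46 for H4C4, 0.44 for H1-4, 0.38 for H2AC12, 0.33 for H2AC8, 0.30 for H2BC18, 0.29 for H4C2 and 0.26 for H2BC13. It was -0.42 for H2BC7, -0.34 for H2BC12, -0.30 for H2AC6, -0.30 for H1-2 and -0.27 for H2AC25. Of these, H3C4, H2BC12 and H2BC18 share 96.5%, 57.2% and 74% of their 50-base stretches with other genes. The calls of H1-4, H2AC12, H3C4, H4C2, H4C4, H2AC6, H2BC7 and H2BC12 held without any 1 library, and those of H4C4, H2BC7 and H2AC6 ended with limma-voom on recovered reads.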

How the results depend on the processing

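Among the recomputed member counts, 145 stayed within 1.5 times the reported count and 13 did not. The count of members higher in KO1, reported as 2, was 1 with median centring, without the variance trend, when fitting just the 2 lines concerned and with limma-voom on recovered reads, each time through the loss of H2BC12. The count of members lower in KO2 than in KO1, reported as 5, was 3 with median centring, 3 with no variance trend and 2 with limma-voom. Leaving out each library in turn gave 17 to 25 members lower and 1 to 2 higher in KO1, 11 to 20 lower and 1 to 2 higher in KO2, 4 to 5 lower and 7 to 10 higher in KO2 against KO1, and 18 to 27 lower and 1 to 2 higher for the mean of both clones. Replicate letters did not pair the libraries (same-letter correlations of -0.07 to 0.04, own letter the best match in 2 of 18), and with the replicate block the counts were 24 lower and 2 higher in KO1 (H2BC12 lost its call at 0.0511 and H1-2 gained one at 0.0055), 17 and 1 in KO2, 5 and 11 in KO2 against KO1, and 25 and 1 for the mean of both clones. No called value changed sign. For named genes, 1596 recomputed values kept their side of the threshold, 107 lost their call and 35 gained one; the cause was not tested. Members with few reads, from 101 in all, are the least precise.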
